A study of Mus musculus with 14 samples.

Results

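Cadherins, protocadherins and axon guidance receptors with their ligands were examined in the mouse hippocampus. The members were chosen by gene symbol alone: Cdh followed by a digit, Pcdh, Celsr, Fat1 to Fat4, Sema, Plxn, Nrp1 and Nrp2, Eph, Efn, Robo, Slit, Unc5, Ntn, Dcc and Neo1. Of the 7756 genes in the table, 109 matched. The rule uses no measured value, but it was set with earlier results of these data known. The libraries were made from bulk hippocampal RNA of wild-type male C57BL/6J mice, 8 weeks old at the start, with 4 libraries in the control group, 5 in the intermittent hypoxia (IH) group and 5 in the sustained hypoxia (SH) group. All groups were kept for 28 days. Per the study's methods, hippocampi in the main experiment were taken after behavioural tests that followed the exposure and included an electric shock. The control group breathed 21% oxygen, the IH group cycled between 10% and 21% oxygen in cycles of 2 min for 8 h per day, and the SH group was held at a constant 10% oxygen during 8 h of each day. The control libraries came from a preliminary experiment, so in each comparison with control the exposure and the experiment cannot be told apart. In bulk tissue, fewer cells of a type and less RNA per cell cannot be told apart either.

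Cadherins hold cells together through calcium-dependent binding of like molecules, and protocadherins are their largest branch in the brain. The clustered protocadherins give single neurons a combinatorial surface identity by which a neuron's own branches avoid each other. Semaphorins signal through plexins and neuropilins, ephrins through Eph receptors, Slits through Robo receptors and netrins through Dcc, Neo1 and the Unc5 receptors, and these pairs steer axons and shape synapses, among them those of hippocampal mossy fibres.

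Several libraries stood apart. The total count per library on the table's genes was between 7203659 and 11777101. The summed normalized count of 15 choroid plexus markers was between 4085 and 125224 in control, 5142 and 76128 in IH and 4744 and 92847 in SH, and was high in control 4, IH 1, IH 4, SH 1, SH 2 and SH 5. The sum of 10 oligodendrocyte markers was between 76547 and 113154 in control, 89153 and 201379 in IH and 87827 and 151548 in SH, with the highest values in IH 5, SH 5 and SH 4, and 2 of the 10 were called higher in each comparison with control. The sum of 6 dentate gyrus markers was highest in the same 3 libraries, and was between 5965 and 7564 in control, 7637 and 12076 in IH and 7532 and 12377 in SH, with 1 of the 6 called higher in each comparison with control. The sum of 9 endothelial markers did not overlap between groups, at 6115 to 6820 in control, 6877 to 7057 in IH and 7220 to 7760 in SH, and 1 of the 9 was called higher in IH and 3 in SH than in control, and 1 lower in IH than in SH. Single endothelial markers went both ways. Mean Flt1 was 1764 in control, 2024 in IH and 2059 in SH, whereas mean Cldn5 was 772, 638 and 642. The sum of 6 microglial markers was lower in every SH library than in every other library, at 5314 to 5742 in control, 4949 to 6053 in IH and 4067 to 4853 in SH, and 3 of the 6 were called lower in SH than in control and 1 higher in IH than in SH. The sum of 12 thalamus and striatum markers was highest in IH 5 and SH 5. It was between 3018 and 4030 in control, 3518 and 6064 in IH and 3407 and 5869 in SH. The sum of 6 CA1 markers was 15762.5 to 17448 in control, 12215.5 to 16145 in IH and 13229 to 16613 in SH. No marker of either list was called in any comparison. The part of endothelial, microglial, dentate gyrus, CA1, thalamus and striatum markers in the calls in SH and IH was not tested. Markers of CA1, CA3 and dentate gyrus neurons were detected in all groups, and no marker gene in the table was at 0 in every library.

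The members were expressed over a wide range (plot of levels by family). The table holds only genes that the authors selected, so ranks within a family cover only its genes in the table. On the scale of normalized count per kb of canonical transcript, averaged over 14 libraries, Pcdh1, a delta protocadherin, was the highest of all at 2143. Unc5a, a netrin receptor that mediates repulsion, followed at 864, and the transmembrane semaphorin Sema6b was at 766. Pcdhgc3 and Pcdhgc5, C-type isoforms of the gamma cluster, were at 729 and 724 per kb, whereas the median of the 43 clustered protocadherins was 43.2. In the other families the highest levels per kb were 620 for the ephrin Efna3, 489 for its receptor class member Epha6, 388 for Plxna1, 266 for the GPI-anchored cadherin Cdh13, 211 for Slit3 and 109 for the giant cadherin Fat3. The median over the members tested was 69.7 per kb, compared to 145 over all genes tested.

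**Figure D1:**
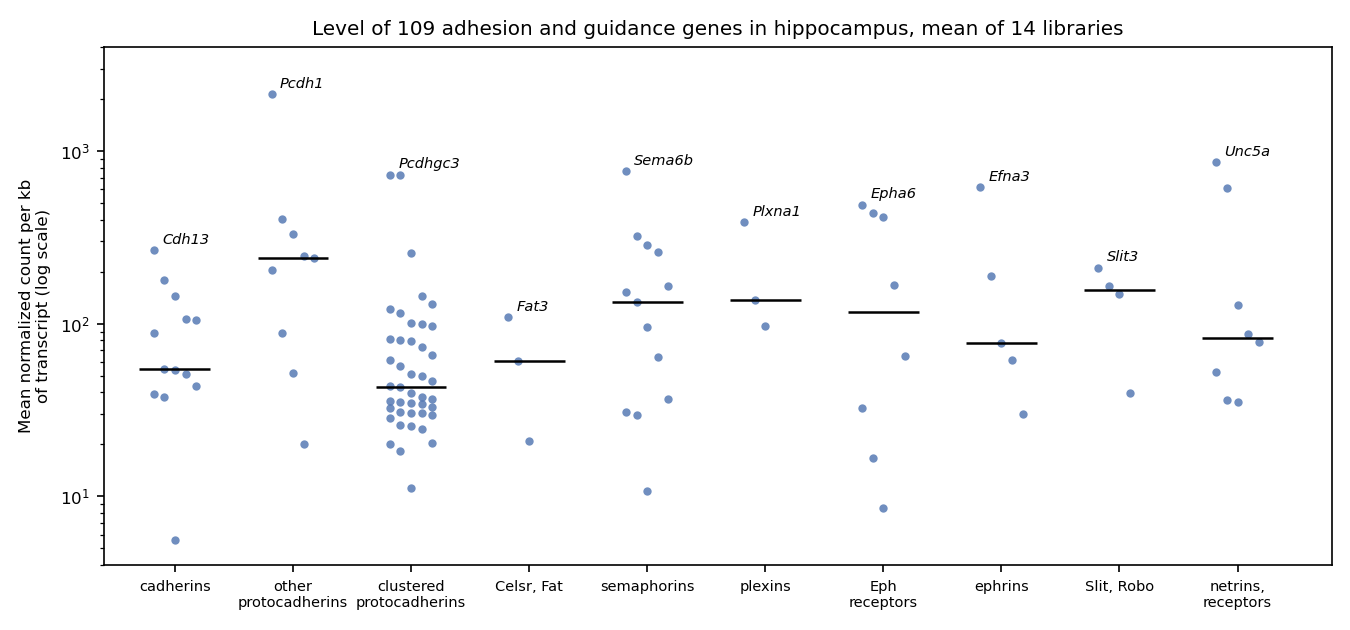
Mean normalized count per kb of transcript over 14 libraries for each of the 109 members, by family, on a log scale (1 point per gene, line at the family median, the highest gene named). Pcdh1 stands highest at 2143 per kb, and the clustered protocadherins centre on 43.2 per kb.

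Testing covered the 7338 genes whose group means all reached 40 counts. The test was the quasi-likelihood test of edgeR, and p-values were adjusted over all of these genes by the Benjamini-Hochberg method. A gene was called at an adjusted p under 0.05. The test included 108 members. Epha2 was left out, with mean counts of 38 in control, 29.4 in IH and 35.8 in SH, and the member nearest above the limit was Pcdha1, with a lowest group mean of 44.2. Because the deposited table had been selected by the authors for a signal that differed from control, the calls hold only within it.

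Compared to the control group, 4 of 108 members (3.70%) were called in the IH group, against 10.9% of all genes tested. The members Pcdh17, Cdh19 and Pcdha4 were higher in IH (2.78%, against 6.08% of all genes) and Sema6b was lower (0.926%, against 4.85%). In the SH group 12 members (11.1%) were called, against 20.6% of all genes. The members Pcdh17, Pcdh9, Cdh19, Sema6d, Plxnb3, Pcdha4 and Pcdhb13 were higher in SH (6.48%, against 10.2%) and Sema6b, Unc5a, Cdh22, Ntn3 and Pcdha11 were lower (4.63%, against 10.5%). Pcdh17, Cdh19, Pcdha4 and Sema6b were thus called in both comparisons, which share their control libraries. The members were called at a lower rate than the table as a whole in both comparisons, and the difference in rate was not tested. The median coefficient of variation within a group was 11.6% over all genes tested. By family it was between 8.86% for protocadherins outside the clusters and 20.1% for Slit and Robo genes. The 43 clustered protocadherins were also at 20.1%, and the part of this spread in the call rate was not tested. Individual libraries of the 2 groups did not overlap for 6 members (5.56%) in IH and control, against 15.1% of all genes, and for 11 members (10.2%) in SH and control, against 19.4%. The median log2 fold change of the members was 0.0022 in IH and 0.013 in SH, compared to -0.015 and 0.0035 for all genes. With the 6 libraries high in choroid plexus markers left out, which leaves 3 control, 3 IH and 2 SH libraries, 0 members were called in either comparison with control by edgeR, and 47 and 26 of all genes were called in IH and SH. Of the 12 members called in SH, 7 stayed called with the summed oligodendrocyte markers as a covariate, without Cdh19, Cdh22, Ntn3, Plxnb3 and Pcdhb13. Without IH 5, SH 4 and SH 5, the 3 libraries highest in these markers, 7 also stayed called, without Cdh19, Cdh22, Ntn3, Pcdh9 and Pcdhb13. The log2 fold changes of Ntn3 and Pcdhb13 in SH were -0.46 and 0.40 with the covariate (adjusted p = 0.0691 and 0.0826), and -0.38 and 0.39 without the 3 libraries (adjusted p = 0.188 and 0.144). Of the 4 called in IH, Pcdha4 was lost in both alternatives, at 0.79 and 0.75 (adjusted p = 0.0576 and 0.0681). Both alternatives were chosen after seeing the data. The calls of each family below are those of this edgeR fit, and genes called only under another setting are named as such. The number called in SH was 6 without control 4 and 7 without SH 4, where the number over all genes went from 1514 to 1109 and 1083, and the number called in IH was 2 without control 2, where that over all genes went from 802 to 386.

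**Figure D2:**
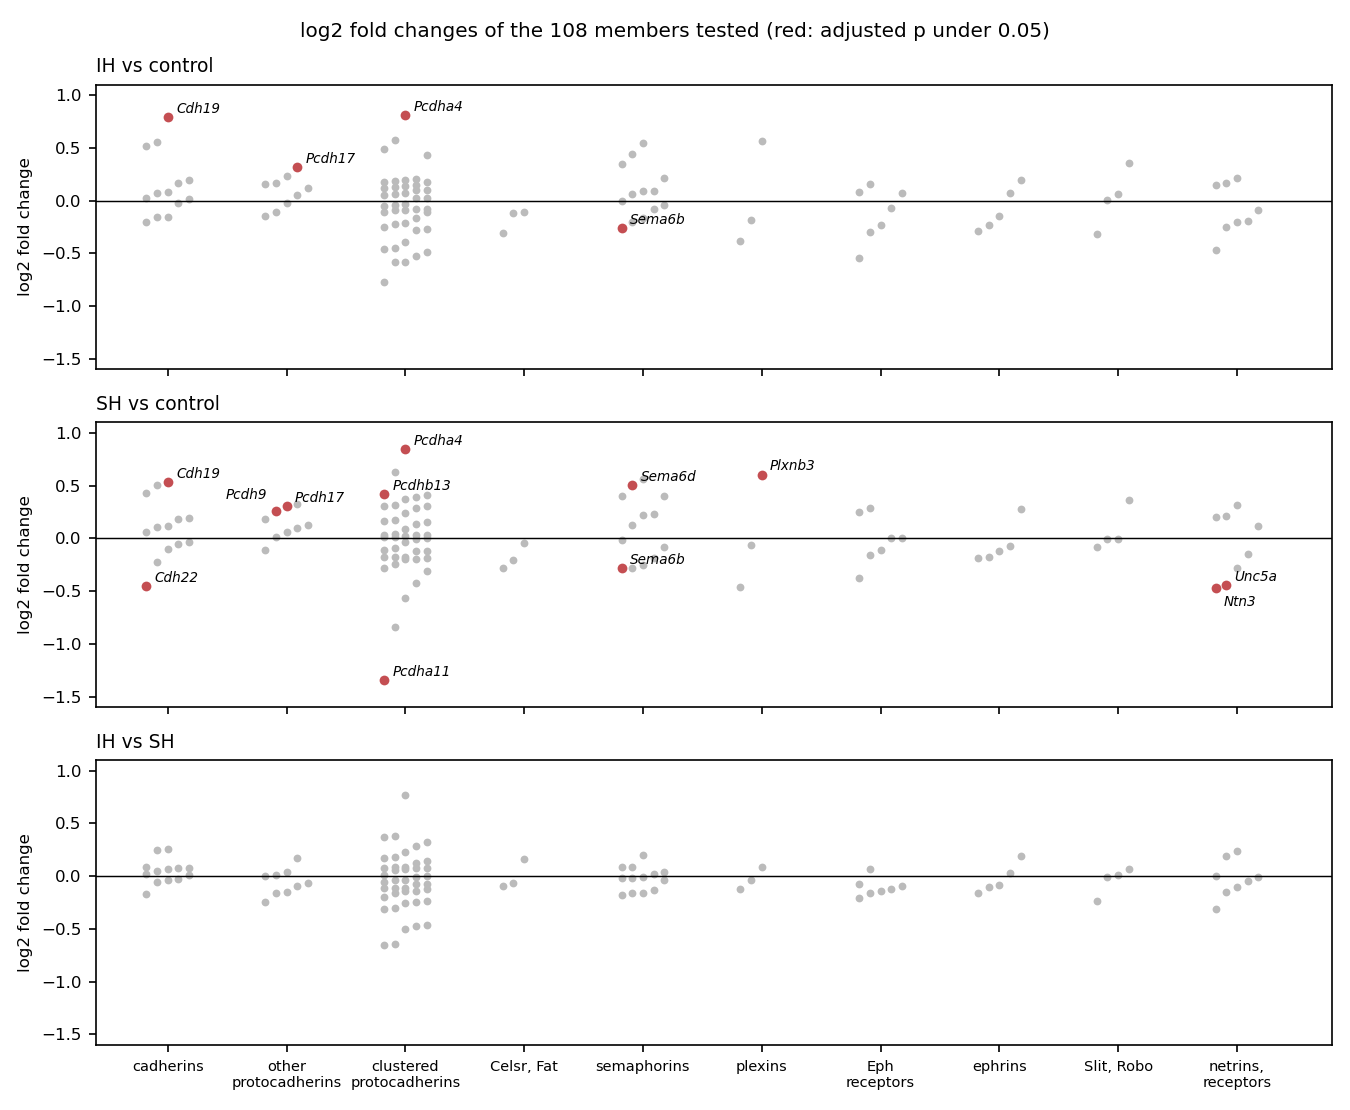
log2 fold change of each of the 108 members tested, by family, in the 3 comparisons (grey, not called; red and named, adjusted p under 0.05 by edgeR). The 4 members called in IH and the 12 called in SH lie on both sides of 0, Pcdha11 lies lowest at -1.35 in SH, and 0 members are called between IH and SH.

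**Figure D3:**
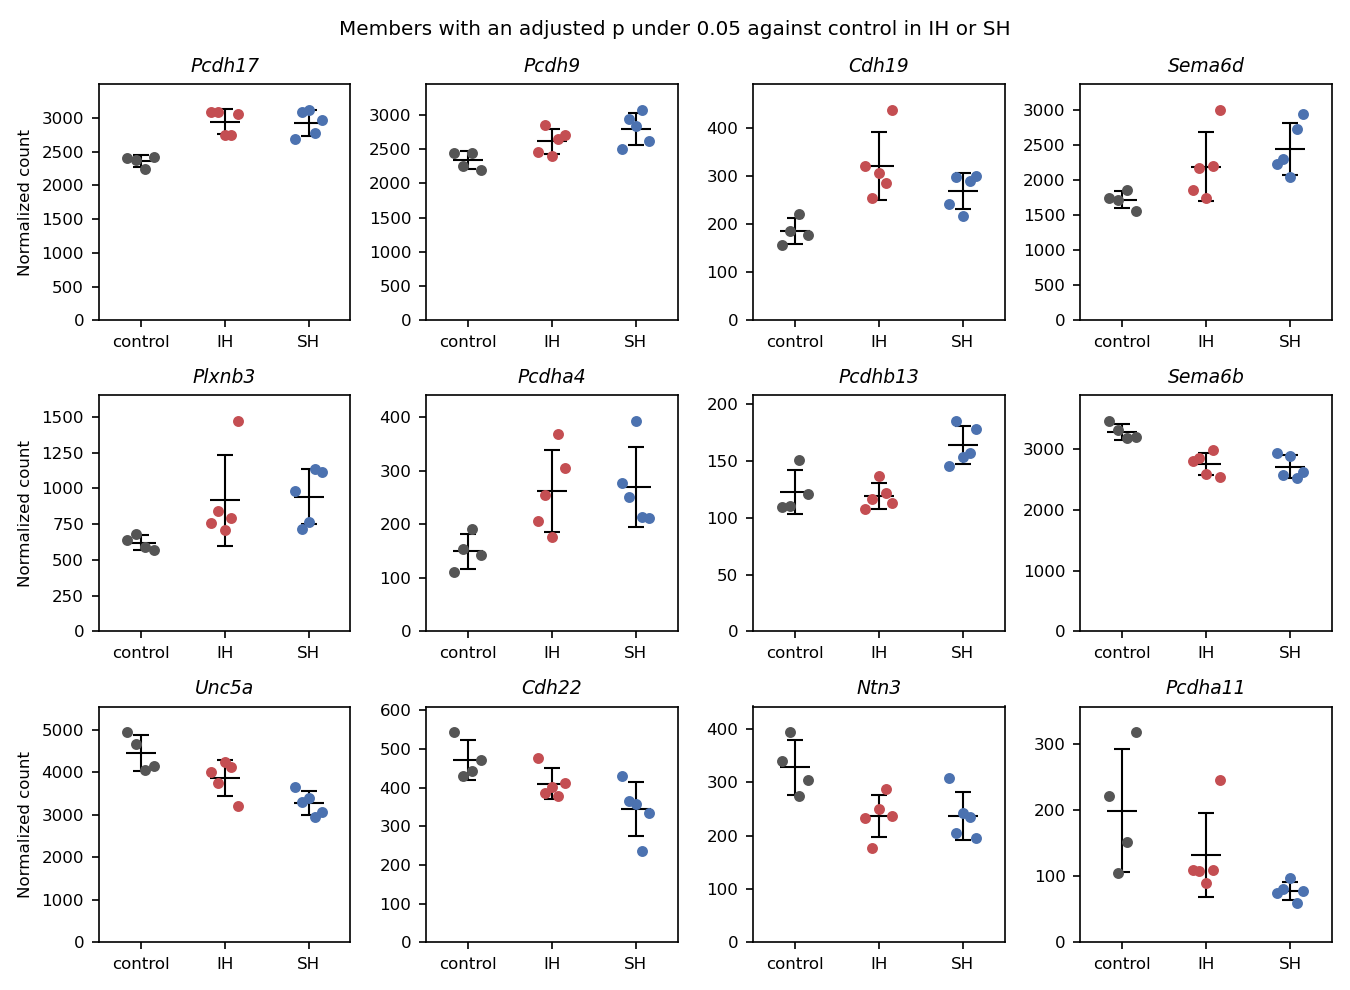
Normalized count of the 12 members called in either comparison with control, 1 point per library, with the mean and SD of each group (control n = 4, IH n = 5, SH n = 5). In Pcdh17 and Sema6b both hypoxia groups lie wholly to one side of control, and in Plxnb3 and Sema6d the library IH 5 lies above the other IH libraries.

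Among the 9 protocadherins outside the clusters, 1 was called in IH and 2 in SH, all higher. Pcdh17, a delta protocadherin that recruits actin regulators to contacts between axons, lies on chromosome 14 from 84680965 to 84776442 (GRCm39, GENCODE annotation, plus strand). Its normalized counts were 2411, 2374, 2242 and 2422 in control 1 to 4, then 3085, 3082, 2743, 2745 and 3063 in IH 1 to 5, and 2688, 3083, 3120, 2779 and 2964 in SH 1 to 5. Every hypoxia library was above every control library. The log2 fold change in IH was 0.32 (standard error 0.061, adjusted p = 0.00562). The log2 fold change in SH was 0.31 (standard error 0.061, adjusted p = 0.00387), and no single library decided either call. Once trends with GC content and transcript length were removed, as described below, the call was kept in IH and lost in SH. Pcdh9, another delta protocadherin, on chromosome 14 from 93250846 to 94128152 (minus strand), had normalized counts of 2449, 2261, 2450 and 2201 in control, 2462, 2850, 2398, 2651 and 2712 in IH and 2499, 2946, 2840, 3076 and 2615 in SH. All SH libraries were above all control libraries, and the IH libraries overlapped with control. Pcdh9 was called in SH (log2 fold change 0.26, standard error 0.071, adjusted p = 0.0211), and the call was lost without control 2, control 4 or SH 4. Without the 3 libraries highest in oligodendrocyte markers it was lost at 0.24 (adjusted p = 0.0658 by edgeR). It was also lost, at 0.051 (adjusted p = 0.675), once trends with GC content and transcript length were removed, as described below. In IH its log2 fold change was 0.16 (adjusted p = 0.146). The other 7 of this family were not called, Pcdh1 among them (log2 fold change -0.11 in IH and in SH, adjusted p = 0.354 and 0.339). Under other settings Pcdh7 was called in IH and SH with the oligodendrocyte covariate and in SH without the 3 libraries highest in these markers, and Pcdh20 in IH without control 3.

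Sequence upstream of Pcdh17 and Pcdh9 is shown as an example of members called higher in SH, and that of Sema6b as an example of a member called lower. The sequences are from the RefSeq promoter table (GRCm38.p6) and were located by exact match in GRCm39. Only bases that no annotated exon covers are printed, 5′ to 3′ on the strand of the gene, and those of Sema6b lie before its canonical transcript and within an intron of a longer annotated one. Capitals mark the core of the hypoxia response element, the letters bound by hypoxia-inducible factors, searched as ACGTG or GCGTG on both strands.
Pcdh17, chr14:84680753-84680964, plus strand: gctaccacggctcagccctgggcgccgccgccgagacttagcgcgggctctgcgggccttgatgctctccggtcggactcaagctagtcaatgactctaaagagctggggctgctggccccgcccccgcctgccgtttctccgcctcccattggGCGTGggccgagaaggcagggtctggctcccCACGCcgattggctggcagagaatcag
Pcdh9, chr14:94128153-94128355, minus strand: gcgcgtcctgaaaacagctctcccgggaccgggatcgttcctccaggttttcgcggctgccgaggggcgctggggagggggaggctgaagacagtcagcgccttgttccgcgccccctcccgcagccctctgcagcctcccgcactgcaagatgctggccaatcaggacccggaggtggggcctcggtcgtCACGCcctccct
Sema6b, chr17:56447407-56447593, minus strand: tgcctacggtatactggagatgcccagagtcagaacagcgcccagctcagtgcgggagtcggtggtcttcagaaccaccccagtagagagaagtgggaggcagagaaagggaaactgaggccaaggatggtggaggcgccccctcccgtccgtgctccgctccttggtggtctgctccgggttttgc
The stretch of Pcdh17 held 2 cores, that of Pcdh9 held 1 and that of Sema6b held 0. Over 250 bases before the start, a core was found in 30 of the 65 promoters listed for 53 members (46.2%), compared to 52.1% of the promoters of genes with counts and 38.6% of all 32851 promoters of the table. A core was found in 4 of 6 promoters of members called higher in SH and in 1 of 5 of members called lower. A match is a description of the letters and not a binding site, and these counts are too few for a comparison.

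Among the 13 classical and related cadherins, Cdh19 was called in both hypoxia groups and Cdh22 in SH. Cdh19, a type II cadherin best known from Schwann cell precursors (chromosome 1, 110815039 to 110905349), had normalized counts of 157, 186, 221 and 178 in control, 321, 255, 305, 286 and 438 in IH and 243, 297, 216, 290 and 301 in SH. All IH libraries were above control, and SH 3 fell below control 3. Its log2 fold change was 0.79 in IH (standard error 0.16, adjusted p = 0.00731). For SH the value was 0.53 (standard error 0.16, adjusted p = 0.0279). The call in IH was kept without any single library, whereas that in SH was lost without control 1, 2 or 4 or without SH 2, 4 or 5. The highest value, in IH 5, was in the library with the highest oligodendrocyte markers, and with the summed oligodendrocyte markers as a covariate, the log2 fold change was 0.61 in IH (adjusted p = 0.0132) and 0.38 in SH (adjusted p = 0.0561). Without the 3 libraries highest in these markers it was 0.65 in IH (adjusted p = 0.0173) and 0.44 in SH (adjusted p = 0.0747). Cdh22, a type II cadherin of the brain (chromosome 2, 164953045 to 165076940), had normalized counts of 544, 430, 443 and 470 in control, 476, 385, 401, 379 and 411 in IH and 430, 365, 358, 237 and 334 in SH. Its lowest value was in SH 4, and SH 1 lay only just below the lowest control library. Cdh22 was called lower in SH (log2 fold change -0.45, standard error 0.13, adjusted p = 0.0294), and the call was lost without control 1, control 4 or SH 5. With the oligodendrocyte covariate its log2 fold change in SH was -0.37 (adjusted p = 0.0677), and without the 3 libraries highest in these markers it was -0.29 (adjusted p = 0.114). Once trends with GC content and transcript length were removed, as described below, it was -0.14 (adjusted p = 0.569). The other 11 cadherins were not called. Cdh7, a type II cadherin, had log2 fold changes of 0.55 in IH and 0.50 in SH (adjusted p = 0.0677 and 0.0665), and was called in both by DESeq2 and without control 1, and in SH without SH 2. Cdh5, the cadherin of endothelial junctions, had log2 fold changes of 0.070 in IH and 0.11 in SH (adjusted p = 0.737 and 0.562), beside the endothelial marker sums given above, and was chosen after its values were seen.

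Semaphorins and plexins gave 3 called members. Sema6b, a transmembrane semaphorin that binds class A plexins (chromosome 17, 56430078 to 56449459), had normalized counts of 3464, 3310, 3175 and 3195 in control, 2809, 2848, 2582, 2977 and 2538 in IH and 2939, 2578, 2883, 2520 and 2619 in SH. Every hypoxia library was below every control library. The log2 fold change was -0.26 in IH (standard error 0.063, adjusted p = 0.0186). For SH it was -0.28 (standard error 0.063, adjusted p = 0.00756). The call in IH was lost without control 1 or control 2. Both calls were lost once trends with GC content and transcript length were removed, at -0.051 in IH and 0.041 in SH (adjusted p = 0.638 and 0.705). Sema6d, a relative that binds Plxna1 (chromosome 2, 123931715 to 124509928), had normalized counts of 1745, 1719, 1855 and 1555 in control, 1855, 2164, 1735, 2199 and 2998 in IH and 2229, 2293, 2040, 2720 and 2933 in SH. All SH libraries were above control, and the highest values were in IH 5, SH 5 and SH 4. Sema6d was called higher in SH (log2 fold change 0.51, standard error 0.14, adjusted p = 0.0204), and the call was lost without control 4. With the oligodendrocyte covariate its log2 fold change in SH was 0.31 (adjusted p = 0.0226), and without the 3 libraries highest in these markers it was 0.35 (adjusted p = 0.0301).

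Plxnb3, the plexin that binds Sema5a (chromosome X, 72800620 to 72816120), had normalized counts of 640, 683, 589 and 566 in control, 754, 843, 712, 795 and 1472 in IH and 978, 719, 767, 1132 and 1112 in SH. All hypoxia libraries were above control, and IH 5 was far above the other IH libraries. Plxnb3 was called in SH (log2 fold change 0.60, standard error 0.20, adjusted p = 0.0406) and not in IH (log2 fold change 0.57, standard error 0.20, adjusted p = 0.0728). The call in IH was gained by DESeq2 (adjusted p = 0.0232) and without IH 3 (adjusted p = 0.0485). The call in SH was lost without any of the 4 control libraries taken singly, and without SH 1, SH 4 or SH 5. With the oligodendrocyte covariate its log2 fold change was 0.30 in SH (adjusted p = 0.0642), whereas without the 3 libraries highest in these markers it was 0.41 (adjusted p = 0.0351). Sema5a, its ligand, had normalized counts of 2018, 2459, 2910 and 2632 in control, 2818, 3325, 2951, 3158 and 4756 in IH and 2458, 2558, 2542, 4568 and 4446 in SH. Its 3 highest libraries were again IH 5, SH 4 and SH 5, and it was not called (log2 fold change 0.44 in IH and 0.40 in SH, adjusted p = 0.165 and 0.173). Without those 3 libraries the log2 fold change of Sema5a was 0.29 in IH (adjusted p = 0.0763) and 0.0077 in SH (adjusted p = 0.965). Plxna1, the receptor of Sema6d, was not called (log2 fold change -0.18 in IH and -0.059 in SH, adjusted p = 0.104 and 0.575), although all its IH libraries were below control, at 4721 to 5393 against 5488 to 5926, and without SH 1 it was called in IH (adjusted p = 0.0493). Under other settings the semaphorin receptor Plxnd1 was called in SH by DESeq2 and in 8 of the edgeR alternatives (log2 fold change -0.46, adjusted p = 0.0518 as reported), and Sema6c in SH in 3 of them. Sema3b, a secreted semaphorin chosen after its values were seen, was at 40, 43, 29 and 399 in control, 194, 48, 35, 291 and 92 in IH and 337, 121, 86, 52 and 137 in SH. Its 6 highest libraries were control 4, SH 1, IH 4, IH 1, SH 5 and SH 2, the 6 with high choroid plexus markers, and its log2 fold change was 0.063 in IH and 0.22 in SH (adjusted p = 0.964 and 0.865).

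Of the 8 netrins and netrin receptors, 2 were called by edgeR, both lower in SH. Unc5a (chromosome 13, 55096518 to 55153833) had normalized counts of 4952, 4665, 4056 and 4149 in control, 4000, 3744, 4251, 4117 and 3197 in IH and 3665, 3300, 3406, 2957 and 3060 in SH. All SH libraries were below all control libraries, and the IH libraries overlapped with control. Unc5a was called in SH (log2 fold change -0.44, standard error 0.088, adjusted p = 0.00394). In IH the change was -0.21 on the log2 scale (adjusted p = 0.131), and the call in SH was kept without any single library but was lost, at -0.12 (adjusted p = 0.360), once trends with GC content and transcript length were removed as described below. Ntn3, a secreted netrin (chromosome 17, 24422822 to 24428570), had normalized counts of 339, 394, 274 and 304 in control, 233, 177, 249, 287 and 237 in IH and 308, 204, 243, 235 and 195 in SH. The groups overlapped, through IH 4 and SH 1. Ntn3 was called in SH (log2 fold change -0.47, standard error 0.16, adjusted p = 0.0469) with the largest adjusted p of the called members, and lost the call in 18 of 26 alternatives. In IH its log2 fold change was -0.47 (adjusted p = 0.0647), with a call by DESeq2 (adjusted p = 0.0385) and without SH 1 (adjusted p = 0.0440). Ntn1, the classical ligand of Unc5a, was not called (log2 fold change -0.25 in IH and -0.15 in SH, adjusted p = 0.257 and 0.509), and neither was Neo1, a receptor of netrins (log2 fold change 0.15 and 0.20, adjusted p = 0.154 and 0.0508). Neo1 was called higher in SH in 7 alternatives, by DESeq2, with library total scaling, with no filter and without control 1, IH 3, IH 5 or SH 1, and the receptor Unc5d was called in IH and SH with the oligodendrocyte covariate.

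The 3 protocadherin clusters supplied 43 members, 11 alpha, 13 beta and 19 gamma genes, of which 1 was called in IH and 3 in SH. The alpha genes share 3′ constant exons with each other, as the gamma genes do, so reads cannot always be told apart and the single counts are uncertain. Pcdha4 had normalized counts of 111, 154, 191 and 144 in control, 207, 255, 177, 369 and 305 in IH and 278, 252, 394, 214 and 211 in SH. The SH libraries were all above control, and IH 3 fell below control 3. The log2 fold change was 0.81 in IH (standard error 0.23, adjusted p = 0.0388). For SH it was 0.84 (standard error 0.23, adjusted p = 0.0209). The call in SH was lost without control 1, and that in IH without control 1, 2 or 4 or without IH 2, 4 or 5. Pcdha11, in the same cluster, had normalized counts of 221, 105, 152 and 319 in control, 110, 108, 89, 109 and 246 in IH and 75, 81, 97, 60 and 77 in SH. All SH libraries were below control, and IH 5 was above the other IH libraries. Pcdha11 was called lower in SH (log2 fold change -1.35, standard error 0.32, adjusted p = 0.00967), the change of largest size among the members called. Its log2 fold change was -0.58 in the IH group (adjusted p = 0.226), and without IH 5 it was -0.93 (adjusted p = 0.0441). Pcdhb13, a single-exon gene of the beta cluster, had normalized counts of 109, 110, 151 and 121 in control, 108, 117, 137, 122 and 113 in IH and 146, 185, 153, 157 and 179 in SH. Only SH 1 fell within the range of control. Pcdhb13 was called in SH (log2 fold change 0.42, standard error 0.14, adjusted p = 0.0459) and lost the call in 20 of 26 alternatives. In the alternatives 1 setting each called Pcdha9 in both comparisons with control, Pcdhga4, Pcdhgb5 and Pcdhgc5 in IH, and Pcdha3, Pcdhb4, Pcdhb22 and Pcdhgb8 in SH.

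The counts of each cluster were also summed (plot of single isoforms and cluster sums). With SDs over 4 control, 5 IH and 5 SH libraries, the alpha sum was 1894 ± 68.7 in control, 1974 ± 143 in IH and 2028 ± 82.2 in SH. The beta sum was 2002 ± 155 in control, 1997 ± 143 in IH and 2159 ± 219 in SH, and the gamma sum was 15338 ± 1845, 14362 ± 455 and 14451 ± 359. The libraries of the groups overlapped for each sum, and no test was made on sums. The median coefficient of variation within a group was 4.05% for the alpha sum and 41.6% for its single genes, 7.73% and 16.8% for beta, and 3.17% and 21.2% for gamma. A sum over many genes varies less than its parts by construction, and more so where reads of shared exons are divided among them, so nothing is read from the difference. The largest shares of the sums were 21.6% for Pcdha12, 16.4% for Pcdhb22 and 23.7% for Pcdhgc5. Pcdhga8 was listed at 0 in SH 2 and between 235 and 531 in the other 13 libraries.

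**Figure D4:**
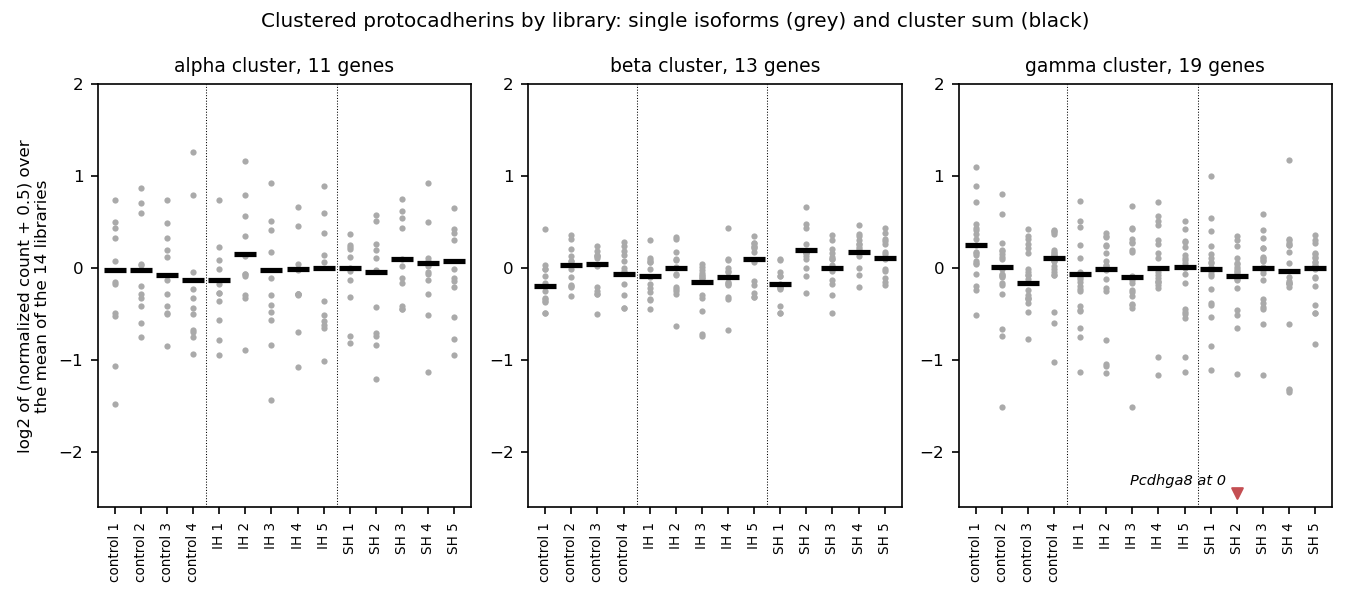
log2 of the normalized count plus 0.5 over its mean in the 14 libraries, for each clustered protocadherin (grey points) and for the sum of its cluster (black bars), by library, with dotted lines between groups. The sums of alpha and gamma vary by a median of 4.05% and 3.17% within a group, a sum varies less than its parts by construction, and Pcdhga8, at 0 in SH 2, is marked at the lower edge.

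The remaining families gave no call in any comparison by edgeR as described above. They were 7 Eph receptors, 5 ephrins, 4 Slit and Robo genes and 3 genes of the Celsr and Fat group. Among Eph receptors the log2 fold changes were between -0.54 for Epha8 and 0.16 for Epha5 in IH, and between -0.38 for Epha8 and 0.29 for Ephb1 in SH. Epha6, the highest of the Eph receptors in the table, had log2 fold changes of -0.23 and -0.11 (adjusted p = 0.452 and 0.732). Ephb6, a receptor without kinase activity that was chosen after its values were seen, was at 2174, 1965, 1780 and 1800 in control, 1652, 1619, 1585, 1749 and 1241 in IH and 1887, 1797, 1841, 1613 and 1524 in SH. Its IH libraries were all below control, without a call (log2 fold change -0.30, adjusted p = 0.0577). Under other settings some of these genes were called in IH, namely Ephb6 by DESeq2 and with 80th percentile scaling, Fat4 with the choroid plexus covariate, and Epha6 and Fat3 with the oligodendrocyte covariate. The ephrins were between -0.29 for Efna2 and 0.19 for Efna1 in IH, and Efna3 was at -0.14 in IH and -0.18 in SH (adjusted p = 0.335 and 0.216). Slit3 was at -0.31 in IH and -0.082 in SH (adjusted p = 0.127 and 0.691), and Fat3 at -0.10 and -0.040 (adjusted p = 0.579 and 0.843). At unadjusted p under 0.05, 23 members (21.3%) passed in IH, against 29.8% of all genes, and 16 (14.8%) in SH, against 36.0%.

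The comparison of IH with SH sets cycling with reoxygenation against sustained low oxygen, and uses libraries of 1 experiment. Per the study's methods, IH and SH mice were exposed in different apparatus, and IH mice were at low oxygen for only part of each cycle. Apparatus and total time at low oxygen therefore cannot be told apart from cycling in this comparison. No member passed by edgeR (0 of 108, against 2.37% of all genes tested), 8 (7.41%) were under 0.05 in unadjusted p, against 15.8%, and DESeq2 called 2, Pcdha3 and Pcdhb13. Individual libraries did not overlap for 2 members (1.85%, against 4.46%), the same pair. The normalized counts of Pcdhb13 given above lay between 108 and 137 in IH and between 146 and 185 in SH (log2 fold change IH over SH -0.46, adjusted p = 0.0859). Those of Pcdha3, named for this count, were 166, 192, 144, 164 and 128 in IH and 196, 300, 272, 212 and 261 in SH (log2 fold change -0.64, adjusted p = 0.125), and without control 2 it was called by edgeR. Of the members called in only one comparison with control, Unc5a differed by 0.24 on the log2 scale between IH and SH (adjusted p = 0.167), Pcdha11 by 0.77 (adjusted p = 0.228), Cdh22 by 0.25 (adjusted p = 0.382), Sema6d by -0.16 (adjusted p = 0.643), Pcdh9 by -0.096 (adjusted p = 0.550), Plxnb3 by -0.039 (adjusted p = 0.967) and Ntn3 by -0.0035 (adjusted p = 0.998). A difference between the effects of IH and SH was therefore not detected by edgeR for these members or for Pcdhb13, also called in SH alone, which does not show that the effects are equal. Pcdhb13 was called by DESeq2 (adjusted p = 0.0457).

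When both an unadjusted p under 0.05 and a log2 fold change of more than 0.58 in size were required, 3 members passed in IH (2.78%, against 2.68% of all genes), 4 in SH (3.70%, against 2.71%) and 3 between IH and SH (2.78%, against 0.981%). They were Cdh19, Pcdha4 and Pcdhgb5 in IH, Plxnb3, Pcdha4, Pcdha11 and Pcdhgb8 in SH, and Pcdha3, Pcdha11 and Pcdhgb5 between IH and SH. All but Cdh19 and Plxnb3 belong to the clustered protocadherins, and all of these to the alpha and gamma clusters, whose single counts are uncertain through shared exons.

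Base composition moved with the calls. The median GC content of the canonical transcripts was 51.6% for the members tested and 51.0% for all genes tested. It was 46.3% for the 7 members called higher in SH and 63.4% for the 5 called lower. Not every call followed this, as Pcdha11, called lower, was at 47.29% and the highest of the 7 was at 55.85%. In the third of genes with the highest GC content the median log2 fold change in SH was -0.18 over 2431 genes and -0.15 over 30 members, and in the third with the lowest it was 0.19 over 2431 genes and 0.18 over 37 members. In IH the corresponding medians were -0.14 and -0.11, and 0.16 and 0.096. When trends with GC content and transcript length were removed from each library, 3 members were called in IH (Cdh19, Pcdh17 and Cdh10, against 5.74% of all genes), 4 in SH (Pcdha11, Plxnb3, Cdh10 and Pcdhb22, against 6.38%) and 0 between IH and SH (against 2.94%). Sema6b and Unc5a lost their calls, as given above. The log2 fold change of Cdh22 in SH moved to -0.14 (adjusted p = 0.569) and that of Pcdh9 in SH to 0.051 (adjusted p = 0.675). Pcdh17 kept its call in IH at a log2 fold change of 0.22 (adjusted p = 0.0244) but lost it in SH at 0.17 (adjusted p = 0.0768). Sema6d, with a GC content of 49.0%, was at 0.43 in SH (adjusted p = 0.0704), Pcdha4 at 0.73 (adjusted p = 0.0723) and Cdh19 at 0.24 (adjusted p = 0.321). Cdh10, a type II cadherin with a GC content of 40.7%, became a call at -0.35 in IH and -0.32 in SH (adjusted p = 0.0111 and 0.0159), from -0.15 and -0.096 without the removal.

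**Figure D5:**
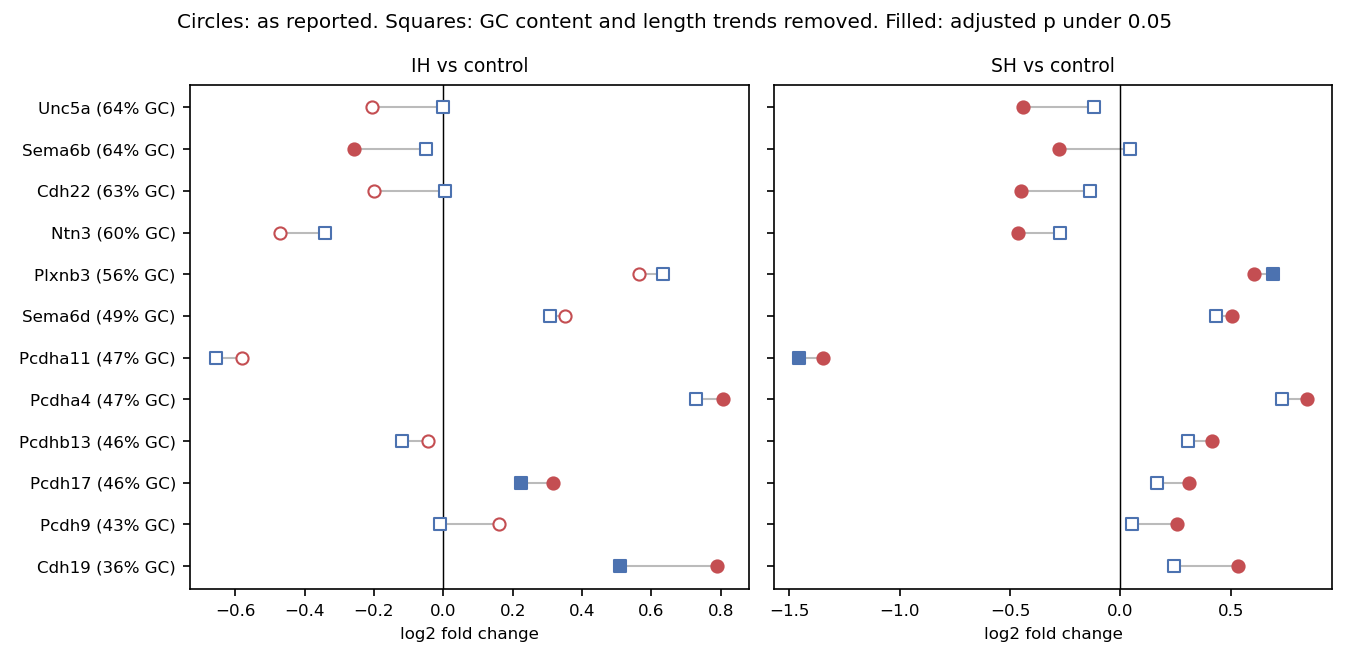
log2 fold change in IH and SH against control of the 12 called members, ordered by GC content of the transcript, before (red circles) and after (blue squares) removal of trends with GC content and transcript length. Filled symbols have an adjusted p under 0.05 by edgeR. Members of high GC content such as Sema6b and Unc5a move towards 0, and Plxnb3 and Pcdha11 stay filled in SH.

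Partner genes that act with these molecules, listed from general knowledge, were counted in the same test. Of 132 listed, 58 were in the table. In IH 4 were higher and 2 lower (10.3%, against 10.9% of all genes), in SH 16 were higher and 3 lower (32.8%, against 20.6%), and between IH and SH 1 was called, against 2.37%. By list, in SH 6 of 11 cadherin-superfamily and protocadherin effector genes, 5 of 9 Eph and ephrin effectors, 2 of 8 Robo and Slit effectors, 1 of 14 plexin and semaphorin effectors, 1 of 11 netrin receptor effectors and 1 of 5 catenins and adherens junction genes were higher, against 10.2% of all genes. Lower in SH were 2 Robo and Slit effectors and 1 plexin and semaphorin effector. The number of partner genes called in SH fell from 19 to 5 without the 3 libraries highest in oligodendrocyte markers, and was 10 without control 1, 8 without control 2, 9 without control 4, 12 without SH 4 and 11 without SH 5. Over all genes the number in SH went from 1514 to 897 without the 3 libraries, and to 906, 979, 1109, 1083 and 1203 in the same order without the single ones. In IH the number of partner genes was 3 without control 1, where that over all genes was 408, and in both it was 0 without the 6 libraries high in choroid plexus markers. Adam10, the protease that sheds ephrins and cadherins, was at 1740, 1694, 1745 and 1643 in control, 2065, 1926, 2218, 2109 and 2151 in IH and 2066, 2340, 2294, 2084 and 2368 in SH. Every hypoxia library was above control (log2 fold change 0.30 in IH and 0.39 in SH, adjusted p = 0.00731 and 8.62e-04). Evl, an actin regulator of the Ena/VASP family, was lower in IH and SH (log2 fold change -0.27 and -0.16, adjusted p = 0.00421 and 0.0336). Chn2, a GTPase-activating protein for Rac, was higher in both (log2 fold change 0.73 and 0.58, adjusted p = 0.0116 and 0.0213), as was the adaptor Crk (log2 fold change 0.26 and 0.28, adjusted p = 0.0207 and 0.00773). Abi1, a subunit of the WAVE complex that protocadherins recruit, was higher in SH (log2 fold change 0.37, adjusted p = 0.00815) and lower in IH than in SH (log2 fold change -0.34, adjusted p = 0.0346). The call between IH and SH was lost in 11 of 26 alternatives, among them the fit of only these groups (adjusted p = 0.0802), those without control 2, without IH 1, 2, 4 or 5 or without SH 2, 4 or 5, and that without the 3 libraries highest in oligodendrocyte markers (log2 fold change -0.25, adjusted p = 0.239). After removal of the GC and length trends 3 partner genes were called in IH (5.17%, against 5.74% of all genes) and 4 in SH (6.90%, against 6.38%). In IH Adam10 was then at 0.13 (adjusted p = 0.195), Crk at 0.14 (adjusted p = 0.199) and Evl at -0.18 (adjusted p = 0.0648), while Chn2 stayed called at 0.72 (adjusted p = 0.0187). In SH Adam10 was at 0.20 (adjusted p = 0.0608), Crk at 0.13 (adjusted p = 0.219), Chn2 at 0.55 (adjusted p = 0.0594), Evl at -0.058 (adjusted p = 0.583) and Abi1 at 0.17 (adjusted p = 0.176), and between IH and SH Abi1 stayed called at -0.32 (adjusted p = 0.0186).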

How the data were processed

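Per the labels and the study's methods, the authors trimmed reads with fastp 0.23.4, aligned them to GRCm39 with HISAT2 2.2.1 and counted with StringTie 2.2.1. The library kit was directional, and whether counting used strand is not given in the sources used here. The deposited values are estimated counts per gene from StringTie, not normalized, for 7756 genes that the authors selected as protein-coding, above 40 counts per group and differing from control in processed signal. Of these, 7338 reached a mean of 40 deposited counts in every group, so the count limit does not hold as a limit on group means.

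Counts (10 genes had values that were not whole) were rounded. The 3 groups were fitted together with edgeR 4.0.16 in R 4.3.3 with TMM scaling, and tests were 2-sided. Normalized counts are counts over the scaled library size. Length and GC content came from the GENCODE canonical transcript (7707 genes matched by symbol, 49 not), and trends were removed by loess with a span of 0.4. The test was checked on simulated data. Named members were the 10 called with the smallest adjusted p per comparison, the highest level per kb in each family, the 3 partner genes of smallest adjusted p, and ligands or receptors of these. Exceptions are marked.

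The members and lists were chosen with earlier results of these data known. The labels give separate samples per group without naming animals, so p-values measure only the spread between these libraries. Replicate numbers were not treated as pairs (correlation of deviations -0.296 to 0.466 over 13 same-numbered pairs, above 0.1 in 6). These values alone cannot show whether the numbers pair the libraries. No libraries were duplicates (chi-square per degree of freedom at least 8.96 over 26 pairs). Other genes of these families were not analysed here. Alternatives were DESeq2 1.42.0, 80th percentile and library total scaling, no filter, filterByExpr, fits of only the 2 groups, a replicate block, trend removal, marker covariates, stricter limits and leaving out libraries.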

Additional observations from a re-analysis of the deposited data

Results flagged for a closer look

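In all, 5 single values lay far from the other libraries of their group by Dixon's criterion, among 81 groups of libraries checked. Chance flags about 1 in 20 groups. The normalized count of Pcdha11 was 246 in IH 5, that of Plxnb3 was 1472 in IH 5, that of Sema5a was 4756 in IH 5 and that of the partner gene Chn2 was 859 in IH 5. IH 5 was also the library with the highest sum of oligodendrocyte markers. With that sum as a covariate the log2 fold change in IH moved from 0.57 to 0.21 for Plxnb3, from 0.44 to 0.12 for Sema5a, from 0.73 to 0.50 for Chn2 (adjusted p = 0.0253 by edgeR) and from -0.58 to -0.74 for Pcdha11. The partner gene Evl was at 1733 in SH 1, below the other SH libraries. Abi1 was singled out because its effects of IH and SH differed by the test of the difference itself, with a log2 fold change of IH over SH of -0.341, a call that was lost in 11 of 26 alternatives, with adjusted p up to 0.552 by edgeR.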

How the results depend on the processing

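In IH the number of members called was 4 (802 over all genes), and 8 by DESeq2 (1079), 8 with the oligodendrocyte covariate (820), 0 without the 6 libraries high in choroid plexus markers (47) and 2 at an adjusted p under 0.01 (204). Leaving out single libraries gave 2 to 6, with 2 without control 2. In SH it was 12 (1514), and 4 with GC and length trends removed (468), 0 without the 6 libraries (26), 4 at the limits on size and unadjusted p (199) and 4 at an adjusted p under 0.01 (581). Leaving out single libraries gave 6 to 14, with 6 without control 4 and 7 without SH 4. Between IH and SH it was 0 (174), and 2 by DESeq2 (300) and 3 at those limits (72), and 0 to 1 without single libraries, with 1 without control 2. With the replicate number as a block, although the labels do not state that the numbers pair the libraries, 3, 10 and 0 members were called. The choroid and oligodendrocyte alternatives other than the choroid covariate were chosen after seeing the data. The 6-library alternative keeps few libraries, and the cause of the other shifts was not tested.

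With the trends removed, 23 of 108 members changed sign in IH, 23 in SH and 6 between IH and SH, among them 1 called value (Sema6b in SH). Among the members followed through all alternatives, signs changed for Sema6b (0.041), Ntn1 (0.027) and Plxna1 (0.025) in SH and for Unc5a (0.00039), Pcdh9 (-0.0085) and Cdh22 (0.0044) in IH. Without single libraries, Pcdhb13 in IH ranged from -0.099 to 0.074, and between IH and SH Plxnb3 ranged from -0.28 to 0.039 and Ntn3 from -0.087 to 0.113. Between IH and SH, Plxnb3 was 0.101 without the 6 libraries, and Ntn3 was 0.0030 with 80th percentile scaling, 0.0059 with the block and 0.00020 with the choroid covariate. None of these sign changes concerned a called value except Sema6b in SH. Depth kept 1 member, Epha2, out of the test, and the lowest group mean of a member tested was 44.2 counts, for Pcdha1.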
